A study of Mus musculus with 16 samples.

Results

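The comparison described here asks how the change in newly made RNA after loss of Zzz3 differed from the change after loss of Supt7l in mouse embryonic stem cells. For each gene it takes the AID-Zzz3 effect (AID-Zzz3 against WT of sequencing project 3) and subtracts the Supt7l-/- effect (Supt7l-/- against WT of project 2). It uses 8 of the 16 libraries, 2 in each of the 4 groups, and the 24847 autosomal genes listed for both projects, of which 14319 passed the filter on low counts and were tested. Because each mutant has WT libraries of its own, the 2 effects share no control library. All 8 libraries held RNA that had been labelled for 15 min with 4-thiouridine (4sU), a uridine analogue built into RNA while it is made, and then pulled down. All cells were E14 mouse embryonic stem cells kept with serum, leukaemia inhibitory factor (LIF), CHIR99021 and PD0325901, and all, WT included, had auxin for 24 h. Per the labels, AID-Zzz3 cells carry an auxin-inducible degron (AID) on Zzz3, Supt7l-/- cells are knockouts, and each mutant is represented by 2 independent clones. Of the 2 WT lines of each project, the second overexpressed Tir1 and BirA (Tir1/BirA WT) and the first is called plain WT here. The labels do not say whether the mutant clones carry Tir1 and BirA. Each mutant was sequenced in 1 project, so the mutated gene, the kind of lesion (degron or knockout) and the project cannot be told apart in the difference.

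Zzz3 and Supt7l belong to separate coactivator complexes that bring histone acetyltransferases to promoters. Zzz3 is a DNA-binding and histone-reading subunit of ATAC (Ada-Two-A-containing). Supt7l (STAF65γ) sits in the core of SAGA (Spt-Ada-Gcn5 acetyltransferase). Both complexes hold the acetyltransferase Gcn5 (Kat2a) or its paralogue Pcaf (Kat2b) together with Tada3 and Sgf29, and SAGA also carries a deubiquitinase. In this medium CHIR99021, an inhibitor of Gsk3, keeps Wnt signalling on, and PD0325901 blocks Mek.

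Mouse gene counts per library ran from 8268061 to 13003804, and counts of the S. pombe spike-in from 803588 to 1976856. Within each group the 2 libraries had a Pearson correlation of 0.99 across genes. Levels below are CPM (counts scaled to a common effective library size, and not for gene length), and effects are log2 fold changes. Libraries were scaled so that the bulk of mouse genes stood at 0. Scaling by the spike-in instead moved the median effect over all genes to -0.36 in both mutants and the median difference to -0.01, so effects are given relative to the bulk of genes. Embryonic stem cell markers summed to between 2457 and 2994 CPM in every library, over the 7 of 8 listed markers that were measured. Pou5f1, Nanog, Esrrb, Zfp42, Klf4, Tfcp2l1 and Dppa5a were not called for the difference. Summed markers of other cells stayed under 19 CPM in every library, and some moved with the mutants. The 6 fibroblast and feeder markers measured summed to 7.42 to 7.85 CPM in WT of project 2, 1.72 to 1.86 in Supt7l-/-, 0.178 to 0.784 in WT of project 3 and 0.640 to 1.38 in AID-Zzz3. Col1a1 and Col1a2 made up most of this sum in WT of project 2. The 4 markers of 2-cell-like cells summed to 3.84 to 3.97 CPM in Supt7l-/- against 0.990 to 1.11 in its WT, and to 1.28 to 1.38 in AID-Zzz3 against 0.490 to 0.624 in its WT. The 4 trophectoderm markers summed to 18.2 to 18.95 CPM in Supt7l-/- against 10.3 to 12.8 in its WT. Gata3 carried that rise, at 14.3 and 13.3 CPM against 6.93 and 4.31. Cdx2 was lower in Supt7l-/-, at 1.74 and 2.36 CPM against 2.97 and 4.20, Eomes overlapped its WT and Elf5 was at 0. In AID-Zzz3 the trophectoderm markers summed to 11.9 to 13.8 CPM, inside the range of its WT (9.60 to 15.8). The 6 primitive endoderm markers summed to 7.30 to 8.72 CPM in Supt7l-/- against 5.64 to 5.97 in its WT, and to 6.01 to 7.12 in AID-Zzz3 against 4.60 to 5.26 in its WT. In Supt7l-/- Gata4 lay above its WT, while Gata6 and Pdgfra overlapped theirs. The 2 neuroectoderm markers summed to 3.2 to 9.14 CPM in AID-Zzz3 against 1.86 to 2.76 in its WT, and to 1.28 to 2.58 in Supt7l-/- against 0.774 to 1.09 in its WT. Nearly all of that sum was Pax6, since Neurog2 was at most at 0.1252 CPM. The 3 mesoderm markers overlapped WT in both mutants, at 5.97 to 13.4 CPM over all libraries. The part of such cells in the results was not tested.

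Zzz3 RNA was lower in the cells with the degron allele. Zzz3 (chr3:152395473-152462826, mm10) was at 302 and 314 CPM in AID-Zzz3 and 449 and 470.4 in its WT, and at 418 and 419.6 in Supt7l-/- and 433 and 458 in its WT. Both AID-Zzz3 clones lay below all 6 other libraries, and the effect was -0.58 ± 0.08 (SE, adjusted p = 0.00204). The degron acts on the protein, so these counts do not measure how much Zzz3 protein was left. Supt7l (chr5:31514564-31527807) was at 9.07 and 14.4 CPM in Supt7l-/- and 14.3 and 14.8 in its WT, and at 16.9 and 15.4 in AID-Zzz3 and 13.1 and 14.01 in its WT. One Supt7l-/- clone lay below its WT and the other within the WT range, and the effect was -0.30 ± 0.20 (SE, adjusted p = 0.56). The labels do not give the part of Supt7l that was removed, so a count over the whole gene does not check the knockout. Neither gene was called for the difference, which was -0.49 for Zzz3 (adjusted p = 0.0715) and 0.55 for Supt7l (adjusted p = 0.422).

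The 2 effects differed at an adjusted p under 0.05 for 77 of 14319 genes (0.538%). The AID-Zzz3 effect was the higher one for 56 genes (0.391%) and the lower one for 21 (0.147%). Within the same fit, 242 genes (1.69%) were higher and 140 (0.978%) lower in AID-Zzz3 than in its WT. In Supt7l-/-, 9 genes (0.0629%) were higher and 31 (0.216%) lower. Either direction together, that is 2.67% of genes in AID-Zzz3 and 0.279% in Supt7l-/-. At an unadjusted p under 0.05 the shares were 15.5% and 12.7%, and 13.4% for the difference. Scaled by the spike-in, 140 genes were higher and 2104 lower in AID-Zzz3, and 40 and 1648 in Supt7l-/-. With a term for Tir1 and BirA in the fit, the difference was called for 517 higher and 327 lower genes. Groups of 2 often do not overlap: both clones lay above both of their WT libraries for 22.4% of genes in AID-Zzz3 and 23.1% in Supt7l-/-, and below both for 21.5% and 25.4%. Of the 77 genes, 70 are protein coding. For 59 of the 77 the 2 effects had opposite signs, 45 of the 56 higher and 14 of the 21 lower. Over all 14319 genes 51.7% had the same sign in both. Selection by the size of the difference itself favours opposite signs, so no conclusion is drawn from this count. In 44 of the 77 genes the AID-Zzz3 effect was also called on its own, in 18 the Supt7l-/- effect, in 1 both and in 14 neither. Among the 21 lower differences, 17 came with a called AID-Zzz3 effect, and all 21 had an AID-Zzz3 effect below 0. The 56 higher differences were more mixed: 27 came with a called AID-Zzz3 effect, 16 with a called Supt7l-/- effect, 12 with neither, and 1, Dlgap3, with both. The number of calls rests on single libraries. Without clone 1 or without clone 2 of Supt7l-/-, edgeR called 0 genes (1448 and 1334 at an unadjusted p under 0.05, against 1922 with all libraries). Without Tir1/BirA WT of project 2, 6 higher and 2 lower were called, without plain WT of project 3, 8 and 3, and without clone 1 of AID-Zzz3, 12 and 3. Without Tir1/BirA WT of project 3 the counts were 166 and 86, and without clone 2 of AID-Zzz3, 134 and 83. Each of the 77 kept its sign in all of these fits.

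**Figure D1:**
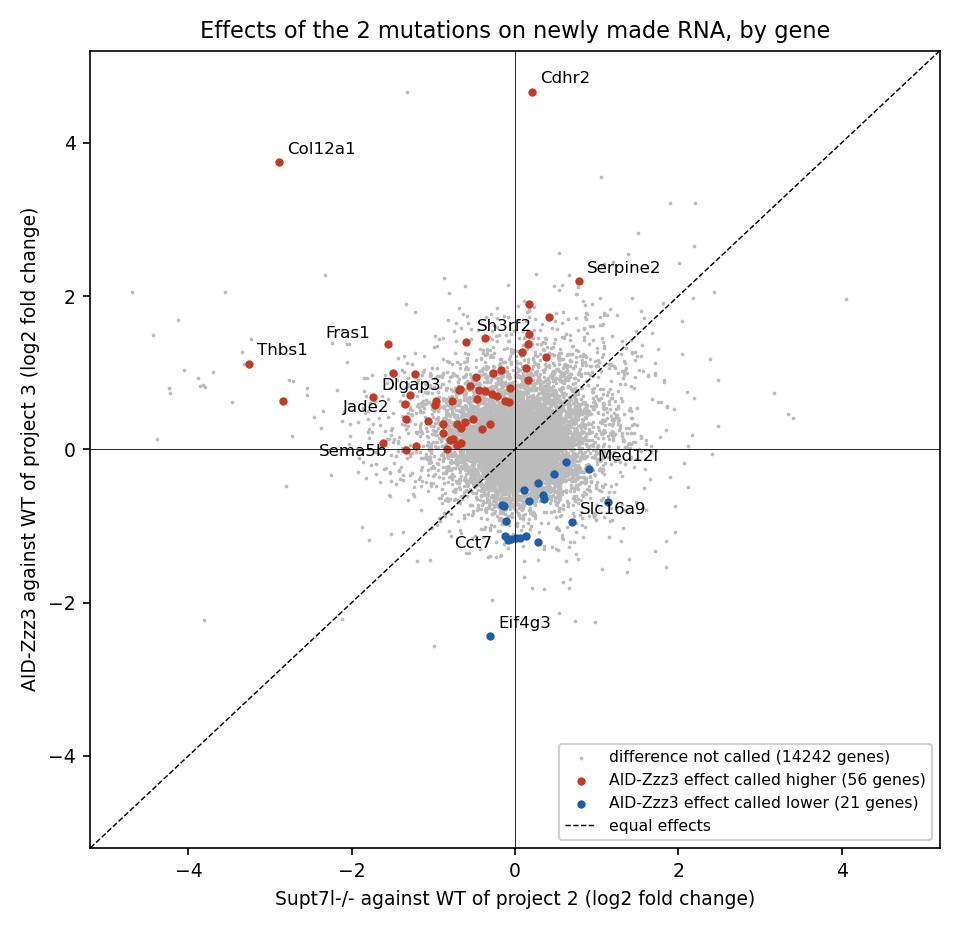
Each point is 1 of 14319 autosomal genes, with the log2 fold change of Supt7l-/- against WT of project 2 on the x axis and of AID-Zzz3 against WT of project 3 on the y axis; colour marks genes called for the difference, and 6 genes lie outside the axes. The 21 genes with a lower AID-Zzz3 effect (blue) all lie below 0 on the y axis, with Eif4g3 lowest, and of the 56 higher ones (red) 46 lie left of 0 on the x axis. Selection by the difference itself favours such positions.

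The genes called lower for the difference that fell in AID-Zzz3 and had no called change in Supt7l-/- include Eif4g3, a scaffold of the eIF4G family that brings ribosomes to capped mRNA, the ribosomal protein genes Rpl35 and Rpl38, and Cct7, a subunit of the CCT chaperonin that folds actin and tubulin. The promoters of 4 of these genes are shown so that their sequence can be set beside the values. Each run is the 120 bases before the RefSeq start (GRCm38.p6), read on the strand of the gene. Capitals mark matches on either strand to the TATA box (TATAAA), the CCAAT box, the GC box (GGGCGG) and the site of ETS factors (CCGGAAG). No 2 of the marked matches overlap. Of 32544 RefSeq promoters, 6.33% hold TATAAA, 21.2% CCAAT, 26.7% GGGCGG and 5.01% CCGGAAG on either strand within the same 120 bases.
Eif4g3: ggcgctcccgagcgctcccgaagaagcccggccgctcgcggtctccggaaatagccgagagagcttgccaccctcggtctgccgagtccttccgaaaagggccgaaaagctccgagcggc
Cct7: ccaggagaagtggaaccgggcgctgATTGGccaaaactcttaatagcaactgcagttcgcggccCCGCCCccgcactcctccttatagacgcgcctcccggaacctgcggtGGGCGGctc
Rpl35: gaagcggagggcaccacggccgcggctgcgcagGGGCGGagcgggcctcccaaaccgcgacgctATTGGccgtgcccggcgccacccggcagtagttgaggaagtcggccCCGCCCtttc
Rpl38: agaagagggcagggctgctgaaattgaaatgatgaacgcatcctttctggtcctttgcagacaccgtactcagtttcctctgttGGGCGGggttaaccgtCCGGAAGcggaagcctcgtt
These windows lie at chr4:137993335-137993454, plus strand (Eif4g3), chr6:85451385-85451504, plus strand (Cct7), chr2:39005132-39005251, minus strand (Rpl35) and chr11:114668460-114668579, plus strand (Rpl38). The printed windows of Cct7 and Rpl35 hold CCAAT and GGGCGG, that of Rpl38 holds GGGCGG and CCGGAAG, and that of Eif4g3 holds none of these motifs. By the gene positions used here, the windows of Eif4g3 and Rpl35 lie inside the gene. Their RefSeq starts are 433 and 493 bases from the outer start of the gene, and the bases before that outer start were not searched.

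Eif4g3 (chr4:137993022-138208508) had the most negative difference of the named genes. Eif4g3 was at 20.3 and 31.1 CPM in AID-Zzz3 and 146 and 137 in its WT, and at 101 and 124 in Supt7l-/- and 125 and 152 in its WT. Both AID-Zzz3 clones lay far below the other 6 libraries, and the Supt7l-/- clones lay just below all WT libraries. The AID-Zzz3 effect was -2.44 ± 0.19 (SE, adjusted p = 0.000785), the Supt7l-/- effect -0.30 ± 0.18 (SE, adjusted p = 0.521), and the difference -2.14 ± 0.26 (SE, adjusted p = 0.0298). Under spike-in scaling the Supt7l-/- effect of Eif4g3 was called by edgeR, at -0.63 (adjusted p = 0.0131). Ece1, which encodes endothelin-converting enzyme 1, ends 27792 bases before Eif4g3 starts and had a difference in the other direction, 1.00 ± 0.18 (SE, adjusted p = 0.041). Ece1 was at 50.95 and 44 CPM in AID-Zzz3 and 28.4 and 29.2 in its WT, and at 22.1 and 21.8 in Supt7l-/- and 28.6 and 24.9 in its WT. Both AID-Zzz3 clones lay above the 6 other libraries.

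Cct7 (chr6:85451514-85468475) was at 50.7 and 58.2 CPM in AID-Zzz3 and 127 and 121 in its WT, and at 138 and 134 in Supt7l-/- and 141 and 149 in its WT. The AID-Zzz3 clones lay below all others, and the other 3 groups were close together. Its difference was -1.10 ± 0.13 (SE, adjusted p = 0.0117), built from an AID-Zzz3 effect of -1.18 and a Supt7l-/- effect of -0.09. Dock3 (chr9:106892825-107231909), which encodes an activator of the GTPase Rac known mainly from neurons, showed the same pattern. Dock3 was at 35.9 and 36.8 CPM in AID-Zzz3 and 80.8 and 81.3 in its WT, and at 70.6 and 75.5 in Supt7l-/- and 76.3 and 68.4 in its WT. The AID-Zzz3 pair did not overlap the other groups, which lay within the range of the WT libraries. Its difference was -1.17 ± 0.14 (SE, adjusted p = 0.0117).

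Rpl35 (chr2:39001580-39005624), a protein of the large ribosomal subunit, was at 14.5 and 18.9 CPM in AID-Zzz3 and 39.2 and 34.8 in its WT, and at 47.6 and 52.1 in Supt7l-/- and 41.2 and 49.6 in its WT. The AID-Zzz3 clones were lowest, and Supt7l-/- overlapped its WT. The difference was -1.27 ± 0.21 (SE, adjusted p = 0.0323). Rpl38 (chr11:114668524-114672331), of the same subunit, was at 18.03 and 21.5 CPM in AID-Zzz3 and 49.9 and 39.7 in its WT, and at 50.8 and 50.2 in Supt7l-/- and 48.8 and 56.02 in its WT, and its difference was -1.12 ± 0.20 (SE, adjusted p = 0.0391). The AID-Zzz3 clones of both genes lay below every other library. Ribosomal protein genes have many processed pseudogenes, and how reads were shared among such copies is not given in the sources used here.

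Ppp2r2a, a regulatory subunit of the phosphatase PP2A, was at 257 and 289 CPM in AID-Zzz3 and 718 and 539 in its WT, and at 735 and 737 in Supt7l-/- and 692 and 519 in its WT. Both AID-Zzz3 clones lay below the rest, although each WT pair was widely spread. Its difference was -1.48 ± 0.23 (SE, adjusted p = 0.041). Slc16a9, of the monocarboxylate transporter family, was at 11.4 and 17.04 CPM in AID-Zzz3 and 30.5 and 25.2 in its WT, and at 31.8 and 25.7 in Supt7l-/- and 19.1 and 16.4 in its WT. The AID-Zzz3 clones lay below their WT and overlapped WT of project 2, and the Supt7l-/- clones lay above their WT. The effects had opposite signs, -0.95 in AID-Zzz3 (adjusted p = 0.0253) and 0.69 in Supt7l-/- (adjusted p = 0.18), and the difference was -1.64 ± 0.28 (SE, adjusted p = 0.0367). Genes with a smaller negative difference, named after their values were seen, include 2 splicing factors. For Snrpb, part of the Sm ring of spliceosomal particles, the difference was -0.83 ± 0.15 (SE, adjusted p = 0.041). For Sf3b3, shared between the SF3B splicing complex and SAGA, it was -0.61 ± 0.11 (SE, adjusted p = 0.041).

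Other genes differed mainly through Supt7l-/-. Of the 31 genes that fell in Supt7l-/-, 16 were called for the difference without a called AID-Zzz3 effect. The median AID-Zzz3 effect over the 31 was 0.06, and 11 of them had the same sign in AID-Zzz3. The promoters of Ankrd45 and Sema5b are shown as the counterpart of the set above, with the same motifs in capitals.
Ankrd45: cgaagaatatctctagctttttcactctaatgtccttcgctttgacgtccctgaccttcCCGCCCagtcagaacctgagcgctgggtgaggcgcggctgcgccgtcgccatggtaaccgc
Sema5b: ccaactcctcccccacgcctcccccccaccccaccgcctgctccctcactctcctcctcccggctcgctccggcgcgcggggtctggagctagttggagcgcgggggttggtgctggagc
They lie at chr1:161142577-161142696, plus strand (Ankrd45) and chr16:35541242-35541361, plus strand (Sema5b). The Ankrd45 window holds GGGCGG, and that of Sema5b holds none of the motifs. By the gene positions used here the Sema5b window lies inside the gene, with its RefSeq start 217 bases from the gene start. The genes of this paragraph and of the next, other than Med12l and Dlgap3, were named after their values were seen.

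Ankrd45 (chr1:161142691-161170498), which encodes an ankyrin repeat protein, was at 19.5 and 16.1 CPM in Supt7l-/- and 36.1 and 38.5 in its WT, and at 40.9 and 42.6 in AID-Zzz3 and 30.7 and 34.2 in its WT. Both Supt7l-/- clones lay below every other library, and the AID-Zzz3 clones above the 6 others. Its difference was 1.43 ± 0.18 (SE, adjusted p = 0.0131). Sema5b (chr16:35541145-35664732), a semaphorin of axon guidance, was at 11.4 and 13.5 CPM in Supt7l-/- and 28.4 and 34.5 in its WT, and at 38.4 and 40.6 in AID-Zzz3 and 37.5 and 41.9 in its WT. The Supt7l-/- clones stood alone, and the AID-Zzz3 effect was -0.00. The difference for Sema5b was 1.33 ± 0.20 (SE, adjusted p = 0.0298). Jade2, a subunit of the HBO1 histone acetyltransferase complex, was at 5.12 and 5.69 CPM in Supt7l-/- and 14.1 and 13.4 in its WT, and at 11.5 and 14.6 in AID-Zzz3 and 9.27 and 10.7 in its WT. The Supt7l-/- clones were again lowest, and its difference was 1.74 ± 0.27 (SE, adjusted p = 0.0298). The same direction was called for Acss1, a mitochondrial acetyl-CoA synthetase (difference 1.71), for Bahcc1, a chromatin protein with a BAH domain (1.26), and for the calcium channel gene Cacna1a (0.74). Their AID-Zzz3 effects were 0.09, 0.05 and 0.08. Med12l (chr3:59005825-59318682), a paralogue of the Mediator kinase module subunit Med12, went the other way. Med12l was at 86.9 and 80.02 CPM in Supt7l-/- and 43.9 and 45.2 in its WT, and at 29.2 and 35.4 in AID-Zzz3 and 42.8 and 34.97 in its WT. Both Supt7l-/- clones lay above all other libraries, the Supt7l-/- effect was 0.90 ± 0.13 (SE, adjusted p = 0.0173) and the difference -1.17 ± 0.18 (SE, adjusted p = 0.0298).

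Both effects were called for 5 genes, which is 1.31% of the AID-Zzz3 calls, beside 0.279% of all genes called in Supt7l-/-, and 12.5% of the Supt7l-/- calls, beside 2.67% of all genes called in AID-Zzz3. Dlgap3 (chr4:127169204-127237022), a scaffold protein of synapses, was the one with opposite directions. Dlgap3 was at 163 and 129.8 CPM in AID-Zzz3 and 89.7 and 98.8 in its WT, and at 56.6 and 54.8 in Supt7l-/- and 86.3 and 104 in its WT. The 2 WT pairs overlapped, the AID-Zzz3 clones lay above both and the Supt7l-/- clones below both. The effects were 0.63 ± 0.12 (SE, adjusted p = 0.0192) and -0.77 ± 0.13 (SE, adjusted p = 0.0321), and the difference 1.41 ± 0.18 (SE, adjusted p = 0.0131). Cdh4, a cadherin of cell adhesion, was lower in both mutants. Cdh4 was at 158 and 163 CPM in AID-Zzz3 and 254 and 254 in its WT, and at 147 and 116 in Supt7l-/- and 250.01 and 224 in its WT. The effects were -0.66 ± 0.11 (SE, adjusted p = 0.00642) in AID-Zzz3 and -0.85 ± 0.11 (SE, adjusted p = 0.0123) in Supt7l-/-, and their difference was 0.19 ± 0.15 (SE, adjusted p = 0.632). Galnt6, which starts mucin-type O-glycosylation, was higher in both, by 1.17 and 0.81, with a difference of 0.36 ± 0.21 (SE, adjusted p = 0.482). Fam124a was also higher in both, by 1.52 and 1.67, and so was the antisense gene Gm28376, by 1.67 and 2.05, which is named because the count is small. The differences of Fam124a and Gm28376 were -0.16 ± 0.39 (SE, adjusted p = 0.907) and -0.38 ± 0.49 (SE, adjusted p = 0.789).

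**Figure D2:**
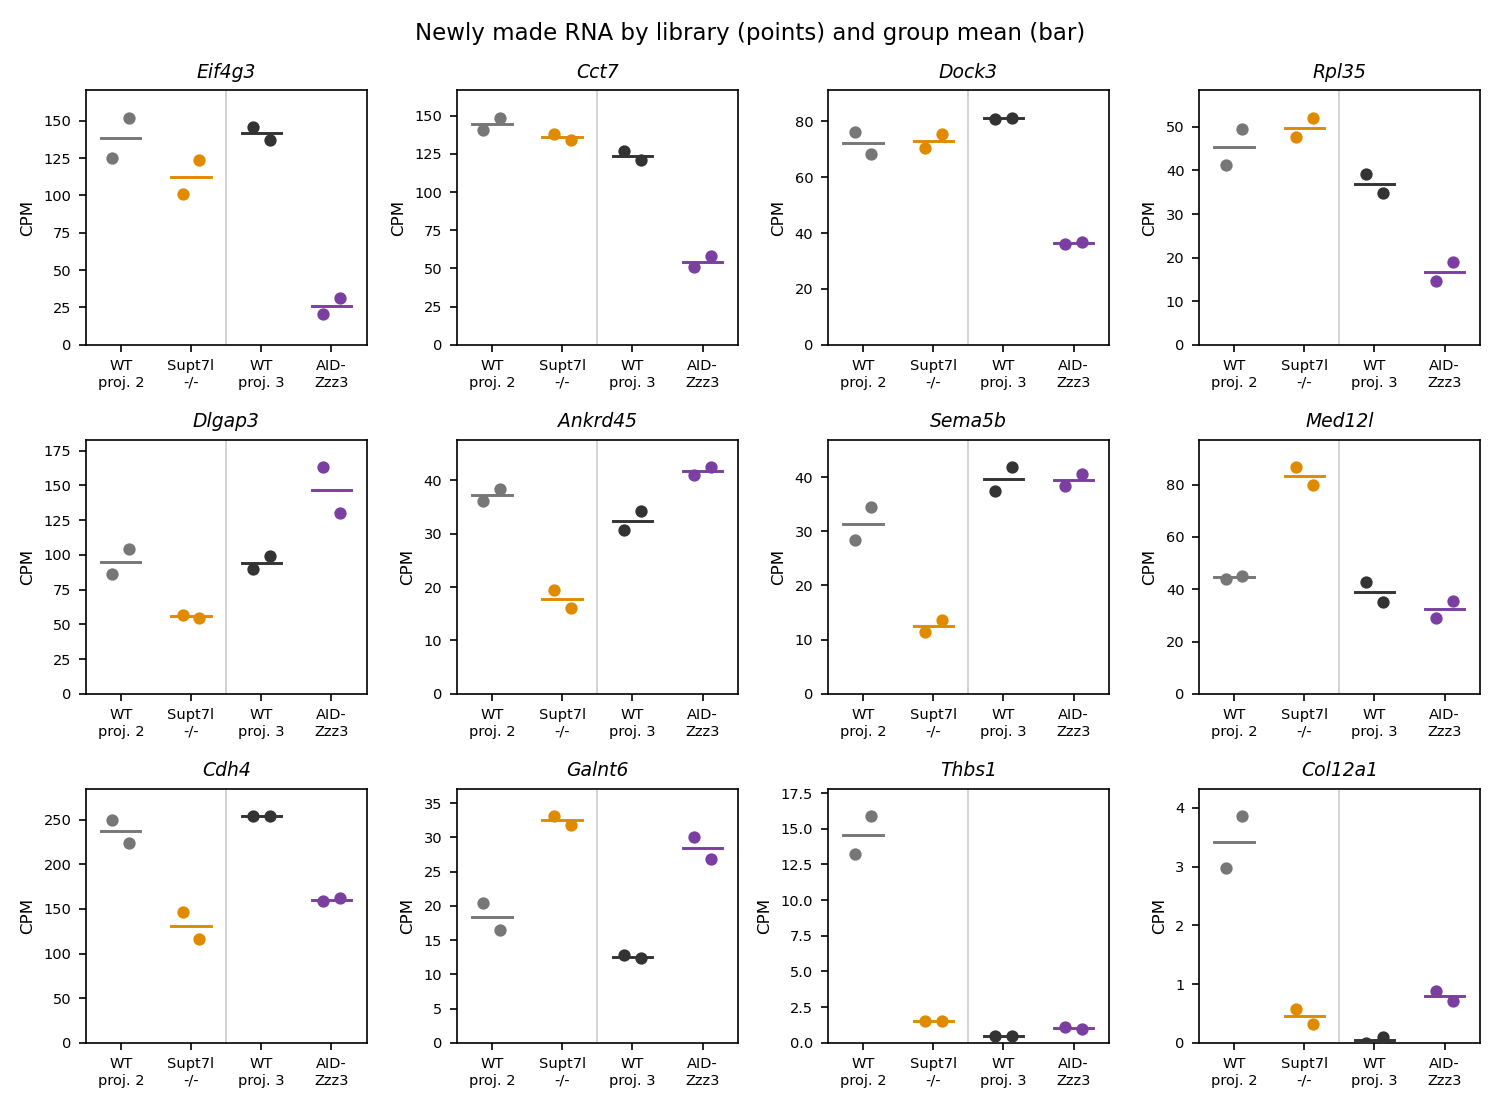
Each panel shows 1 gene, with CPM on the y axis, 1 point per library (2 per group) and a bar for the group mean; the grey line parts project 2 from project 3. Eif4g3, Cct7, Dock3 and Rpl35 are lowest in AID-Zzz3, and the Supt7l-/- clones of Eif4g3 and Cct7 also lie below their own WT, by less. Ankrd45 and Sema5b are low and Med12l is high only in Supt7l-/-, and Dlgap3 moves in opposite directions. For Thbs1 and Col12a1 WT of project 2 stands above the 3 other groups.

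A further set had a higher effect in AID-Zzz3, in part with a called rise there. Sh3rf2, which encodes a protein with SH3 domains, was at 50.3 and 34.2 CPM in AID-Zzz3 and 15.7 and 15.97 in its WT, and at 10.2 and 8.91 in Supt7l-/- and 14.5 and 14.4 in its WT. Both AID-Zzz3 clones lay above all others, and the Supt7l-/- clones below them all. Its difference was 2.00 ± 0.27 (SE, adjusted p = 0.0141). Fras1, Rasgrp2, Grid2ip and Stk33 were called for the difference and in neither effect alone. Fras1, an extracellular matrix protein, was at 12.02 and 5.68 CPM in AID-Zzz3 and 3.21 and 3.43 in its WT, and at 1.63 and 1.61 in Supt7l-/- and 4.06 and 5.52 in its WT. The AID-Zzz3 clones were far apart, both above the 6 other libraries, and its difference was 2.93 ± 0.54 (SE, adjusted p = 0.041). Rasgrp2, an activator of the GTPase Rap, had a difference of 2.21 ± 0.42 (SE, adjusted p = 0.041), with effects of 0.98 and -1.23. Grid2ip, which encodes a protein that binds a glutamate receptor, had 2.00 ± 0.36 (SE, adjusted p = 0.041), from 0.71 and -1.29. The kinase gene Stk33 had 1.94 ± 0.36 (SE, adjusted p = 0.041), from 0.60 and -1.34. In all 3 the Supt7l-/- effect was the larger in size, and the AID-Zzz3 clones of Stk33 overlapped their WT. Genes with a called rise in AID-Zzz3, named after their values were seen, include Serpine2, an inhibitor of serine proteases, and Ptprt, a receptor tyrosine phosphatase. Serpine2 was at 26.3 and 22.3 CPM in AID-Zzz3 and 5.53 and 4.996 in its WT, and at 14.1 and 11.6 in Supt7l-/- and 7.72 and 7.18 in its WT. All 4 mutant libraries lay above the WT pairs, with effects of 2.20 and 0.78, and the difference was 1.42 ± 0.26 (SE, adjusted p = 0.041). Ptprt rose by 1.89 in AID-Zzz3 against 0.16 in Supt7l-/-, with a difference of 1.73 ± 0.29 (SE, adjusted p = 0.0379).

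Col12a1, Thbs1 and Cdhr2 are genes of low level whose WT pairs were over 2-fold apart between the projects, which held for these 3 of the 77. Col12a1, a fibril-associated collagen, was at 0.876 and 0.720 CPM in AID-Zzz3 and 0 and 0.0980 in its WT, and at 0.582 and 0.322 in Supt7l-/- and 2.97 and 3.87 in its WT. Thbs1, thrombospondin 1 of the extracellular matrix, was at 1.13 and 0.960 CPM in AID-Zzz3 and 0.446 and 0.490 in its WT, and at 1.51 and 1.504 in Supt7l-/- and 13.3 and 15.9 in its WT. In both genes WT of project 2 was the highest group and WT of project 3 the lowest. The differences were 6.64 ± 1.02 (SE, adjusted p = 0.0298) and 4.38 ± 0.53 (SE, adjusted p = 0.0117). For Col12a1 the WT libraries of project 3 held 1 count against 16 in AID-Zzz3, a ratio of 16.7 with a 95% exact interval of 2.60 to 702 that covers counting error only, so the fitted value depends on the prior count. The fibroblast and feeder list, of which 6 of 19 genes were tested, was also highest in WT of project 2 for Col1a2, at 0.501 and 0.240 CPM in AID-Zzz3 and 0.0891 and 0.294 in its WT, and at 0.116 and 0.430 in Supt7l-/- and 3.17 and 5.08 in its WT. The difference of Col1a2 was 4.66 ± 1.17 (SE, adjusted p = 0.111) and that of Tagln 1.38 ± 0.94 (SE, adjusted p = 0.558). For the difference edgeR called none of the 6 (1 at an unadjusted p under 0.05, 0 by DESeq2). In Supt7l-/- 2 of the 6 fell, beside 0.216% of all genes. Under spike-in scaling edgeR called the difference of Col1a2 (4.67, adjusted p = 0.0118). On that scale 5 of the 6 fell in Supt7l-/-, beside 1648 of all 14319. The summed markers of these cells moved with Col12a1 and Thbs1 (7.42 to 7.85 CPM in WT of project 2, 1.72 to 1.86 in Supt7l-/-). Col1a1 and Col1a2 made up most of the sum in WT of project 2, at 3.46 and 1.88 CPM and at 3.17 and 5.08. None of the 6 markers measured was at 0 in all 8 libraries, but Col3a1, Thy1, Postn and Dcn each stayed at 0.5525 CPM or less. Dcn was at 0.233 CPM in 1 Supt7l-/- clone and at 0 in both WT libraries of project 2. The part of such cells in the differences of Col12a1 and Thbs1 was not tested, and in bulk RNA fewer cells of a type and less RNA per cell cannot be told apart. For Cdhr2, a cadherin of brush borders, the pattern was another. Cdhr2 was at 3.13 and 2.32 CPM in AID-Zzz3 and 0.0891 and 0.0980 in its WT, and at 1.16 and 1.72 in Supt7l-/- and 1.19 and 1.33 in its WT. WT of project 3 stood below all other libraries, with 2 counts against 54 in AID-Zzz3 (ratio 28.2, 95% exact interval 7.45 to 239), and the fitted difference was 4.46 ± 0.79 (SE, adjusted p = 0.041).

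Many ribosomal protein genes fell in AID-Zzz3 relative to the bulk of genes, and none was called in Supt7l-/-. Under spike-in scaling 37 of 41 large and 22 of 31 small subunit genes fell in AID-Zzz3, beside 2104 of all 14319 genes. In Supt7l-/- 12 and 7 fell under that scaling, beside 1648 of all 14319. Of 41 genes of the large subunit tested, 38 had a difference below 0, and the median difference was -0.51, beside 0.01 over all 14319 genes, of which 7038 lay below 0. Of the 41, 2 were called for the difference, Rpl35 and Rpl38. In AID-Zzz3 21 of the 41 fell and none rose, with a median effect of -0.65, and in Supt7l-/- edgeR called none (3 at an unadjusted p under 0.05, 0 by DESeq2), with 37 below 0 and a median of -0.13. Over all genes 0.978% fell in AID-Zzz3, and 12.7% had an unadjusted p under 0.05 in Supt7l-/-. The small subunit gave the same picture over 31 genes. There 26 differences lay below 0, and the median was -0.36. In AID-Zzz3 10 of the 31 fell and none rose (median -0.48), and in Supt7l-/- edgeR called none (3 at an unadjusted p under 0.05, 0 by DESeq2), with 25 below 0 and a median of -0.12. In the small subunit Rps24 had a difference of -0.85 ± 0.17 (SE, adjusted p = 0.0532). Under spike-in scaling the difference was called lower for 5 large subunit genes and 1 small subunit gene, Rps24 (edgeR adjusted p = 0.0358). Summed over the large subunit, levels were 1437 and 1854 CPM in AID-Zzz3, 2559.6 and 2393 in its WT, 2732 and 2550.0 in Supt7l-/- and 2672.5 and 3169.8 in its WT. The AID-Zzz3 clones lay below all 6 other libraries, and the Supt7l-/- clones overlapped their WT. Not all members moved alike: the difference was 0.05 for Rpl4, 0.04 for Rpl23a and 0.22 for Rps19, toward the other end of the lists.

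Other genes of protein synthesis were less uniform. Of 47 translation factor genes, 32 had a difference below 0 (median -0.10), with Eif4g3 called lower and Eif2b5 called higher. Eif2b5, the catalytic subunit of the exchange factor eIF2B, had effects of 0.33 in AID-Zzz3 and -0.71 in Supt7l-/-, and a difference of 1.04 ± 0.19 (SE, adjusted p = 0.042). In AID-Zzz3 4 of the 47 fell, beside 0.978% of all genes. Under spike-in scaling 25 of the 47 fell in AID-Zzz3 and 12 in Supt7l-/-, beside 2104 and 1648 of all 14319. Of 13 genes of the CCT chaperonin and its partner prefoldin, 11 had a difference below 0 (median -0.22). Cct7 was called, and Cct4 had -0.72 ± 0.15 (SE, adjusted p = 0.064). In AID-Zzz3 3 of the 13 fell, and in Supt7l-/- edgeR called none (1 at an unadjusted p under 0.05, 0 by DESeq2). With spike-in scaling 7 of the 13 fell in AID-Zzz3 and 2 in Supt7l-/-. Host genes of small nucleolar RNAs, whose introns hold guides for ribosomal RNA modification, were lower in both mutants on the median, by -0.49 in AID-Zzz3 and -0.28 in Supt7l-/- over 16 genes. Their median difference was -0.23, edgeR called none (2 at an unadjusted p under 0.05, 0 by DESeq2), and Snhg17 had -0.48 ± 0.15 (SE, adjusted p = 0.205) and Snhg20 -0.66 ± 0.26 (SE, adjusted p = 0.285). For 58 ribosome biogenesis factors the median difference was -0.06 and for 20 aminoacyl-tRNA synthetases -0.15, with none called by edgeR or DESeq2 (5 and 3 at an unadjusted p under 0.05). For 75 mitochondrial ribosomal proteins the median was 0.02 and for 67 nuclear-coded respiratory chain subunits -0.03, again with none called by either tool (3 each at an unadjusted p under 0.05). At that unadjusted threshold lay 12.7% of all genes in Supt7l-/- and 13.4% for the difference.

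Several targets of the tumour suppressor p53 rose in AID-Zzz3 relative to the bulk of genes. Of 14 targets that act in cell death, 6 were higher in AID-Zzz3 (median effect 0.56, and 0.19 with 2 called under spike-in scaling) and none in Supt7l-/- by edgeR (median 0.15, and -0.21 under spike-in scaling; 6 at an unadjusted p under 0.05, 2 by DESeq2). The 6 were Fas, Bbc3, Pidd1, Trp53inp1, Apaf1 and Zmat3, of which Fas and Bbc3 were also called under spike-in scaling. Both are of low level, at a mean of 1.34 CPM for Fas and 8.43 for Bbc3. The effects of Fas were 2.65 in AID-Zzz3 and 2.19 in Supt7l-/-, and those of Bbc3 1.47 and 0.60. Over all genes 1.69% were higher in AID-Zzz3, and 140 of 14319 under spike-in scaling. In Supt7l-/- spike-in scaling gave 3 called rises and 1 called fall among the 14. The counts over all genes were 40 and 1648. An unadjusted p under 0.05 was found for 12.7% of all genes in Supt7l-/- and for 13.4% in the difference. None of the 14 was called for the difference by edgeR (8 at an unadjusted p under 0.05, 1 by DESeq2), which had a median of 0.45 and lay above 0 in 11. Trp53inp1 had a difference of 0.64 ± 0.13 (SE, adjusted p = 0.0555) and Zmat3 0.49 ± 0.12 (SE, adjusted p = 0.11). Perp and the BH3-only gene Pmaip1 lay on the other side, with differences of -1.30 and -1.02 and Supt7l-/- effects of 1.86 ± 0.45 (SE, adjusted p = 0.162) and 1.68 ± 0.36 (SE, adjusted p = 0.0867). Of 26 targets of arrest, repair and feedback, 10 were higher in AID-Zzz3 (median 0.51, and 0.15 with 3 called under spike-in scaling). In Supt7l-/- edgeR called none higher (7 at an unadjusted p under 0.05, 0 by DESeq2). The Supt7l-/- median was 0.09, and -0.26 with 1 called higher under spike-in scaling. The difference had a median of 0.24, and 1 gene was called, Ccng1, which encodes cyclin G1. Ccng1 was at 110.4 and 117 CPM in AID-Zzz3 and 59.7 and 71.02 in its WT, and at 76.5 and 77.97 in Supt7l-/- and 73.7 and 87.2 in its WT. The AID-Zzz3 clones lay above all others, Supt7l-/- lay within its WT, and the difference was 0.86 ± 0.16 (SE, adjusted p = 0.041). Gtse1 had 0.55 ± 0.13 (SE, adjusted p = 0.0917). Cdkn1a, the cell cycle inhibitor p21, had effects of 0.50 ± 0.10 (SE, adjusted p = 0.0224) and 0.10 ± 0.10 (SE, adjusted p = 0.731). Summed over these 26 genes, levels were 2508.5 and 2666 CPM in AID-Zzz3 against 1709 and 1917 in its WT, and 2232 and 2088 in Supt7l-/- against 1971 and 1899.5 in its WT. Both mutant pairs lay above their own WT.

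**Figure D3:**
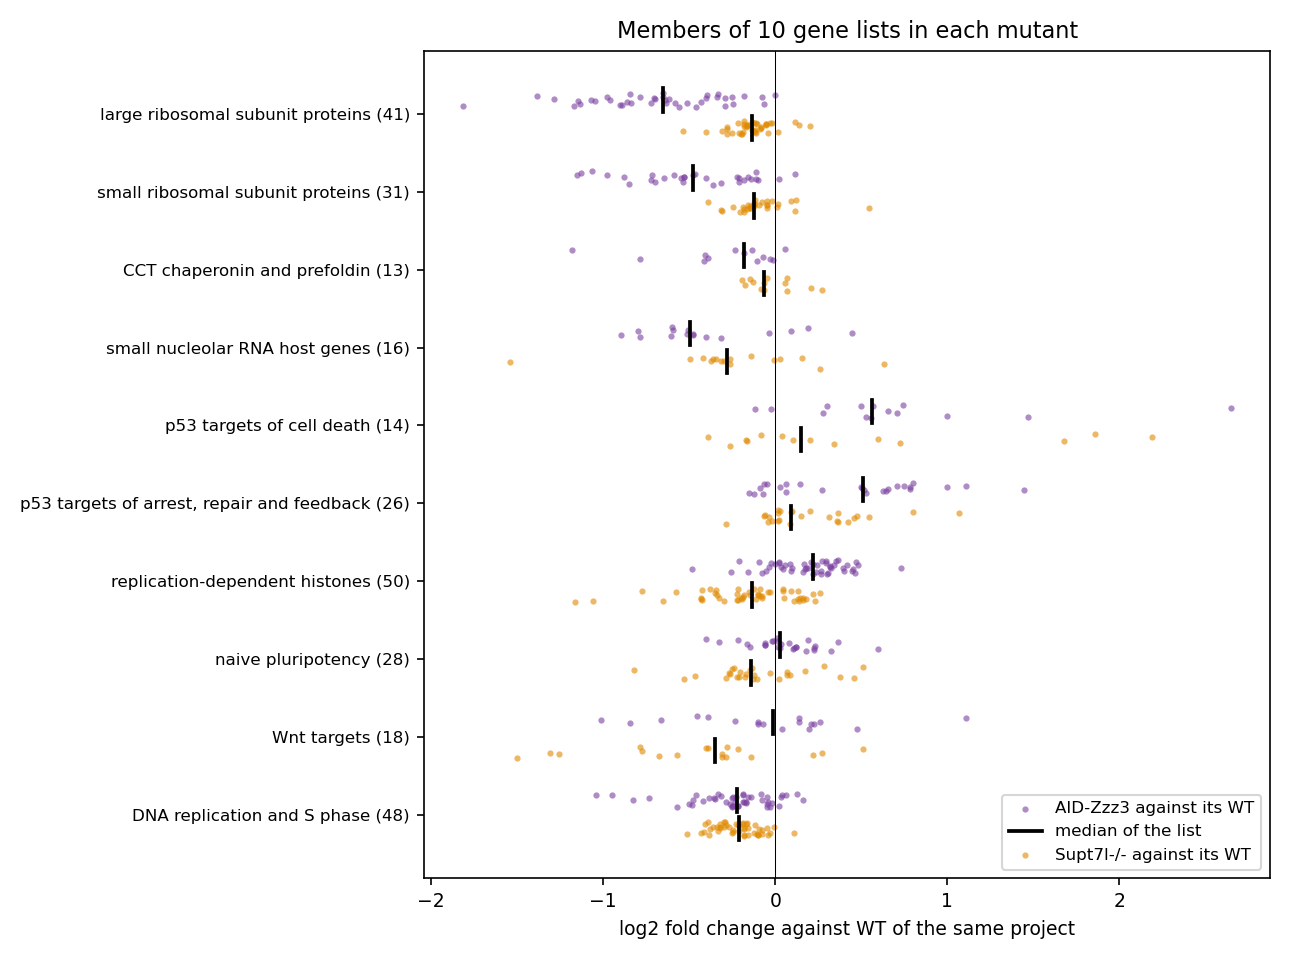
Each point is 1 gene of the list named on the y axis (number of genes tested in brackets), at its log2 fold change against WT of the same project on the x axis, in purple for AID-Zzz3 and orange for Supt7l-/-; black bars are medians. The ribosomal protein lists lie left of 0 in AID-Zzz3 (medians -0.65 and -0.48) and near 0 in Supt7l-/- (-0.13 and -0.12), and the p53 lists right of 0 in AID-Zzz3 (0.56 and 0.51).

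In the lists described next no gene was called for the difference by edgeR. Of 50 replication-dependent histone genes, 44 had a difference above 0, with a median of 0.29. The medians were 0.22 in AID-Zzz3 and -0.14 in Supt7l-/- (-0.15 and -0.48 under spike-in scaling). Of the 50, 6 had an unadjusted p under 0.05 for the difference, beside 13.4% of all genes, and DESeq2 called 0. Hist1h2ai had 1.24 ± 0.36 (SE, adjusted p = 0.17) and Hist1h3a 0.84 ± 0.26 (SE, adjusted p = 0.194). Many of these genes are near-identical copies, so single members are uncertain. Summed levels were 1003 and 1107 CPM in AID-Zzz3 against 1089 and 781 in its WT, and 705 and 603 in Supt7l-/- against 709.8 and 670.4 in its WT. The mutant pairs overlapped their WT on this scale. Of 18 Wnt targets, 15 had a difference above 0 (median 0.38), with medians of -0.01 in AID-Zzz3 and -0.35 in Supt7l-/- and 6 at an unadjusted p under 0.05 (0 by DESeq2). Dkk1, a secreted Wnt inhibitor, had 1.98 ± 0.59 (SE, adjusted p = 0.184), and Bmp4, a growth factor, -1.52 ± 0.50 (SE, adjusted p = 0.219). Of 28 naive pluripotency genes, 22 had a difference above 0 (median 0.18), from 0.03 in AID-Zzz3 (-0.34 under spike-in scaling) and -0.14 in Supt7l-/-. None was called by edgeR for either effect or the difference (8 at an unadjusted p under 0.05 for the difference, 0 by DESeq2). For 17 genes of the Myc and Max network the median difference was 0.22, with 0.45 ± 0.14 (SE, adjusted p = 0.198) for Mxi1 and 1.43 ± 0.46 (SE, adjusted p = 0.201) for Mycl. For 7 targets of the aryl hydrocarbon receptor it was 0.31 and all 7 lay above 0, with 0.59 ± 0.30 (SE, adjusted p = 0.441) for Cyp1a1, the enzyme most used as its readout, and 0.36 ± 0.19 (SE, adjusted p = 0.435) for the receptor gene Ahr. For 25 genes of the amino acid stress response it was -0.25, with -0.51 ± 0.15 (SE, adjusted p = 0.175) for the arginine transporter Slc7a1 and -0.65 ± 0.26 (SE, adjusted p = 0.298) for the folate enzyme Mthfd2.

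Lineage genes gave no called difference with edgeR, and DESeq2 called 1, in the primitive endoderm list. The median difference was 0.21 over 13 primitive endoderm genes, 0.20 over 5 mesoderm genes, -0.31 over 8 trophectoderm genes and -0.22 over 7 neuroectoderm genes, of which 2, 1, 2 and 0 had an unadjusted p under 0.05. Among the members of primitive endoderm, Fn1 had 0.65 ± 0.15 (SE, adjusted p = 0.0938) and Col4a1 0.73 ± 0.28 (SE, adjusted p = 0.301). In the trophectoderm list Gata3 had -0.97 ± 0.36 (SE, adjusted p = 0.266) and Tfap2a -0.91 ± 0.30 (SE, adjusted p = 0.213). Gata3, a transcription factor of trophectoderm, was at 14.3 and 13.3 CPM in Supt7l-/- and 6.93 and 4.31 in its WT, and at 7.89 and 7.36 in AID-Zzz3 and 7.22 and 4.898 in its WT. Both Supt7l-/- clones lay above the other 6 libraries, with an effect of 1.29 ± 0.25 (SE, adjusted p = 0.0617). Kdr had 0.55 ± 0.44 (SE, adjusted p = 0.629), Pax3 -1.12 ± 0.65 (SE, adjusted p = 0.487) and Stmn2 -0.37 ± 0.27 (SE, adjusted p = 0.604). For 20 imprinted genes the median was 0.20 (0 called by edgeR, 3 by DESeq2, 7 at an unadjusted p under 0.05), with -1.27 ± 0.32 (SE, adjusted p = 0.115) for Peg10 and -1.0 ± 0.29 (SE, adjusted p = 0.194) for Gnas. Under spike-in scaling edgeR called Peg10 (adjusted p = 0.0147) and Gnas (adjusted p = 0.0384) lower for the difference. The imprinted gene Nespas, outside this list and named after its value was seen, was called higher for the difference, at 0.67. Summed over the list, plain and Tir1/BirA WT were at 1399 and 2332 CPM in project 2 and 1205 and 2345 in project 3. Supt7l-/- was at 1077 and 1075 CPM and AID-Zzz3 at 2887 and 1693. For 9 muscle structure genes the median difference was -0.26, with -1.57 ± 0.35 (SE, adjusted p = 0.0741) for Actn2 and 2.01 ± 0.70 (SE, adjusted p = 0.271) for Neb. Under spike-in scaling edgeR called the differences of Actn2 (adjusted p = 0.00549) and Neb (adjusted p = 0.00184). Actn2 and Neb encode proteins of the sarcomere and were called in AID-Zzz3 in opposite directions, -2.56 and 2.56.

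Few genes of the complexes themselves were called. Of 19 SAGA core genes, 1 was called for the difference, Sf3b3, and the median was -0.11. In AID-Zzz3 2 of the 19 fell, Sf3b3 and Atxn7l1. Of 10 ATAC genes edgeR called none for the difference (median 0.13; 4 at an unadjusted p under 0.05, 1 by DESeq2), and Zzz3 was the 1 that fell in AID-Zzz3. For the 4 genes of the shared acetyltransferase module that were tested, the effects of Kat2a were 0.20 in AID-Zzz3 and -0.42 in Supt7l-/-, and its difference was 0.62 ± 0.24 (SE, adjusted p = 0.297). Those of Kat2b were -0.03 and -0.24. For 42 genes of RNA polymerase II and Mediator the median difference was -0.03, for 12 of TFIID 0.03, for 32 of elongation and pause release 0.03, and for 44 of the spliceosome -0.05. Snrpb was the 1 gene called among these lists. Of 48 genes of DNA replication and S phase edgeR called none for the difference (median -0.06; 9 at an unadjusted p under 0.05, 0 by DESeq2). Their medians were -0.22 in AID-Zzz3, where 5 fell, and -0.21 in Supt7l-/-, where edgeR called none (15 at an unadjusted p under 0.05, 0 by DESeq2). Over all genes 12.7% had an unadjusted p under 0.05 in Supt7l-/- and 13.4% for the difference, and 0.978% fell in AID-Zzz3. Under spike-in scaling 31 of the 48 fell in AID-Zzz3 and 27 in Supt7l-/-, beside 2104 and 1648 of all 14319.

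Across the 14319 genes the 2 effects had a Pearson correlation of 0.02 and a Spearman correlation of 0.03, and 51.7% of genes had the same sign in both. These genes come from the same 8 libraries and are not independent replicates. The correlation turned on WT of project 3: it was 0.17 without plain WT and -0.17 without Tir1/BirA WT. The difference of Tir1/BirA WT from plain WT itself correlated at 0.43 between the projects. With Tir1/BirA WT alone in both projects the correlation of the effects was 0.22, and with plain WT alone it was -0.06. The genes called in AID-Zzz3 had the same sign in Supt7l-/- more often than not. Of the 242 that rose, 178 (73.6%) lay above 0 in Supt7l-/-, with a median Supt7l-/- effect of 0.16, and of the 140 that fell, 101 (72.1%) lay below 0, with a median of -0.11. Of the 31 genes that fell in Supt7l-/-, 11 (35.5%) lay below 0 in AID-Zzz3.

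Called genes were more frequent among long genes. The share called for the difference was 0.215% of 3260 genes spanning under 10 kb, 0.242% of 4545 from 10 to 30 kb, 0.727% of 4263 from 30 to 100 kb and 1.24% of 2251 of 100 kb and over. In AID-Zzz3 the longest class held 92 rises and 24 falls, and the shortest 20 rises and 40 falls. In Supt7l-/- 19 of the 40 called genes lay in the longest class (0.844% of it). Level varies with span, so the classes were also read within 10 to 100 CPM. There, rises in AID-Zzz3 made up 1.20% of the shortest and 6.31% of the longest genes, and falls 3.38% and 1.20%. The difference was called for 0.763%, 0.172%, 1.21% and 2.10% of genes from the shortest to the longest class, which is not a steady rise. The median AID-Zzz3 effect was -0.02 in the shortest and 0.07 in the longest class, and the median Supt7l-/- effect -0.01 in both.

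**Figure D4:**
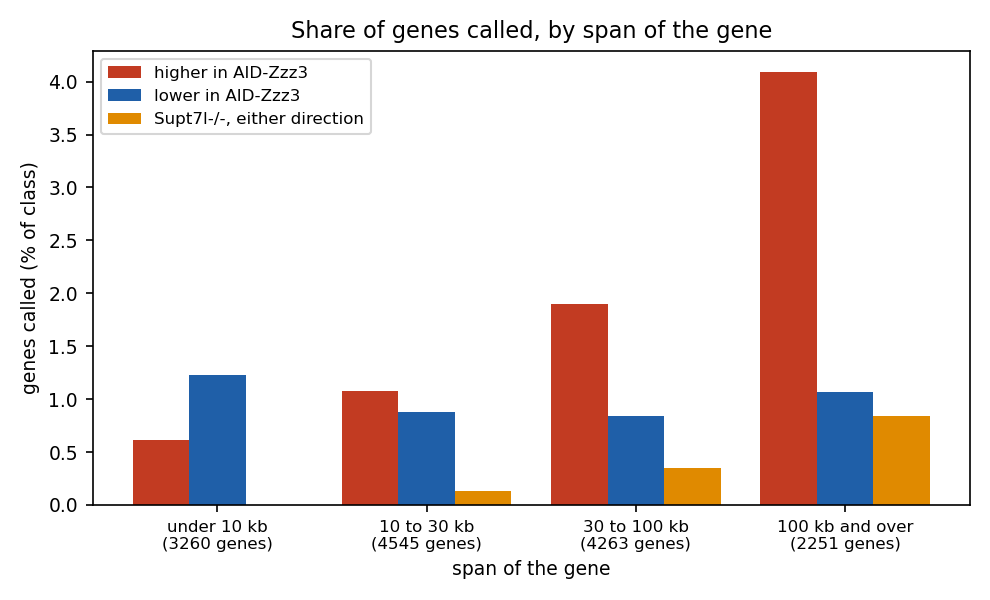
Bars give the share of genes called (%, y axis, from 0) in each class of gene span (x axis, number of genes in brackets), for rises and falls in AID-Zzz3 and for both directions in Supt7l-/-. Rises in AID-Zzz3 run from 20 of 3260 genes under 10 kb to 92 of 2251 of 100 kb and over, and in the shortest class falls outnumber them.

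Few of the called genes lay side by side. Apart from Ece1 and Eif4g3, Terb2 and Sord on chromosome 2 lie 28351 bases apart and had differences of 1.61 and 1.33. Gm43950 and Gm43948 on chromosome 6 overlap, with differences of 2.42 and 3.47. Whether the counting used strand is not given in the sources used here, so reads of these 2 genes may not be told apart.

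The amount of newly made RNA against the spike-in was lower than in WT by similar shares in both mutants. The ratio of mouse to S. pombe effective library size was 10.1 ± 0.0742 (SD, n = 2) in AID-Zzz3 and 12.97 ± 0.887 in its WT, which is 77.7% of WT. It was 5.02 ± 0.902 in Supt7l-/- and 6.39 ± 0.0197 in its WT, which is 78.6%. By library it was 10.0 and 10.1 in AID-Zzz3, 13.6 and 12.3 in its WT, 4.38 and 5.66 in Supt7l-/- and 6.401 and 6.37 in its WT. Each mutant pair lay below its own WT pair. On the log2 scale both changes were -0.36, and their difference was -0.0035 (exact permutation test within projects, two-sided p = 1; the smallest p that its 36 arrangements allow is 0.0556). The Supt7l-/- clones were far apart, so that the difference was -0.19 without clone 1 and 0.19 without clone 2. Under spike-in scaling all 77 differences kept their sign and 54 stayed past the threshold, among 203 higher and 59 lower in all.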

How the data were processed

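The series holds 16 libraries, 14 of newly made RNA labelled with 4sU and 2 of total RNA, and 8 of the 4sU libraries were used in the comparison. Per the submitters' processing notes, reads were processed with tools that include STAR 2.5.3a and HTSeq 0.6.1p1 (beside cutadapt 1.10, Bowtie2 2.2.8, DESeq2 1.16.1), with the builds mm10, BDGP6, sacCer3 and ASM294v2. The role of each tool, the strand setting and the handling of multi-mapping reads are not given in the sources used here. Each table the authors deposited holds raw counts of reads for every gene beside values divided by size factors (normalized signal), gene lengths and positions, and log2 fold changes with p-values. Only the deposited raw counts, symbols and positions were used, and the normalized signal, log2 fold changes and p-values of the authors were not.

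Autosomal genes in the tables of both projects were fitted together with edgeR 4.0.16 in R 4.3.3 (TMM scaling, filterByExpr with a minimum count of 10, robust quasi-likelihood test, 4 groups, 4 residual degrees of freedom). Adjusted p-values are Benjamini-Hochberg values over all genes tested in a contrast, and a gene was called under 0.05. Errors marked SE are the size of the log2 value divided by the square root of the F statistic of its test. They are thus derived from the test and are not a separate estimate of spread. With 2 clones or lines per group, p-values measure the spread between these clones and lines. In each WT group the 2 lines differ by Tir1 and BirA, so this spread holds that difference too. The Tir1/BirA term in the alternative fit placed the mutant clones midway between the 2 WT lines. Total counts of 8268061 or more per library limit precision mainly for genes of a few CPM. On simulated counts the fit was tested first. The S. pombe spike-in was scaled within each project over genes with at least 10 counts in every library.

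The named genes are Zzz3 and Supt7l, the 8 most positive and 8 most negative called differences among protein-coding genes that have a full symbol, at least 1 CPM and the same sign under spike-in scaling, up to 4 genes called in both effects per direction pattern, and in lists with a median at least 0.2 from 0, or at least 2 calls, the 2 members with the smallest p. The comparison, its lists and this rule were chosen with earlier results of these data known, so lists are described by counts and medians and were not tested. Promoters are from RefSeq (GRCm38.p6), matched by symbol. Alternatives covered scaling, filters, DESeq2 1.42.0, the libraries fitted, a replicate block, a term for Tir1 and BirA, and each library left out. Zzz3 protein and some listed markers were not analysed here. Results for some genes are not reported here.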

Additional observations from a re-analysis of the deposited data

How the results depend on the processing

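The 77 called differences kept their sign wherever they were measured in all 19 alternatives, but the number called did not hold: none was called under all 8 left-out libraries, and 6 were under at least 6. Counts are given as higher and lower. For the difference (56 and 21) they were 203 and 59 with spike-in scaling, 467 and 279 with no filter, 15 and 4 with at least 50 counts in every library of a group, 128 and 64 with DESeq2, 112 and 65 in a fit of 14 libraries, 517 and 327 with a Tir1/BirA term, 245 and 163 with only plain WT, and 184 and 107 with only Tir1/BirA WT. Leaving out 1 library gave 0 to 166 and 0 to 86. For AID-Zzz3 (242 and 140) they were 140 and 2104 with spike-in scaling, 548 and 435 with no filter, 629 and 447 with the Tir1/BirA term and 386 and 312 with only plain WT. Lower counts were 240 in the fit of 14 libraries and 241 with only Tir1/BirA WT, and left-out libraries gave 101 to 249 and 53 to 168. For Supt7l-/- (9 and 31) they were 40 and 1648 with spike-in scaling, 267 and 394 with no filter, 54 and 111 with DESeq2, 349 and 406 with the Tir1/BirA term and 408 and 456 with only Tir1/BirA WT. Higher counts were 27 in the fit of 14 libraries and 15 with only plain WT, the lower count was 18 with at least 50 counts, and left-out libraries gave 0 to 50 and 0 to 89. DESeq2 size factors and all chromosomes kept these counts within 1.5 times. The correlation of the effects (0.02) was 0.22 with only Tir1/BirA WT and ran from -0.17 to 0.17 over left-out libraries. The difference in RNA amount (-0.0035) ran from -0.19 to 0.19. The cause of these shifts was not tested. The 2 alternatives with 1 WT line were chosen after seeing the data, and where an arm holds 1 library that arm is taken to vary as the others do.

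With a replicate block on clone number the difference was called for 7 and 3 genes, AID-Zzz3 for 170 and 90 and Supt7l-/- for 0 and 9. Clone numbers name separate clones and do not pair them (the clone 2 minus clone 1 deviations correlated at -0.06), so this fit says nothing of a weaker effect.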

Other observations

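The lists of this paragraph, outside the main account, had median differences from -0.13 to 0.05. Single members were spread more widely, from -2.89 to 2.50 in the 2-cell-like list and from -1.13 to 1.23 in glycolysis and hypoxia. For 5 genes of the 2-cell-like state the median effect was 0.61 in AID-Zzz3 and 1.05 in Supt7l-/-, with a median difference of -0.07 and none called by edgeR or DESeq2 (1 at an unadjusted p under 0.05 for the difference). For 24 genes of glycolysis and hypoxia the medians were -0.18 and -0.23, and 1 fell in AID-Zzz3. For 42 genes of mitosis and spindle they were -0.08 and -0.12, and 1 fell in AID-Zzz3. The median difference was 0.02 for 20 heat shock genes, -0.07 for 31 proteasome subunits, -0.05 for 28 genes of cholesterol synthesis and -0.13 for 23 endoplasmic reticulum chaperones and unfolded protein response genes. In these 4 lists neither tool called a difference, and 3, 1, 2 and 2 genes had an unadjusted p under 0.05. With spike-in scaling edgeR called 1 gene of the endoplasmic reticulum list lower for the difference.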
